A study of Mus musculus with 5 samples.

Results

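The 10 genes described here encode the exon junction complex (EJC) and its close partners. They were the rows of the deposited count table whose gene name was Eif4a3, Rbm8a, Magoh, Magohb, Casc3, Rnps1, Acin1, Pnn, Sap18 or Pym1, so 10 of 55573 genes, each with 1 row. RNA-seq counts came from N2A (Neuro-2A), an established line of mouse neuroblastoma cells, in a study that used them to find transcripts controlled by nonsense-mediated mRNA decay (NMD). Cells were transfected with 60 pmol of the non-targeting Silencer Negative Control #1 siRNA (siCtl, 2 libraries, replicates 1 and 3) or with the same amount of an siRNA against Upf1 (siUpf1, 3 libraries, replicates 1, 2 and 3). The knockdown was transient and rested on 1 siRNA sequence, and no genotype differed between the groups. The labels do not say that the replicates were separate cultures, so p-values measure the spread between these libraries.

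The EJC is placed on spliced mRNA by the spliceosome, upstream of exon-exon junctions, and is removed when a ribosome first passes. An EJC that remains downstream of a stop codon helps to recruit UPF1, the RNA helicase of NMD, and thereby marks the mRNA for decay. Its core is the DEAD-box protein eIF4A3, which clamps the RNA, the RBM8A-MAGOH heterodimer, which locks that clamp, and CASC3. The periphery includes RNPS1, which pairs with SAP18 and either ACIN1 (the ASAP complex) or PNN (the PSAP complex). PYM1 binds RBM8A-MAGOH and ribosomes and helps to take the EJC apart.

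The agent that separates the groups is the Upf1 siRNA, whose sense strand is shown with the bases 2 to 8 in capitals, and below it the reverse complement, which a script derived, with the same bases in capitals.
Upf1 siRNA, sense: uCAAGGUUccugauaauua
Upf1 siRNA, antisense: uAAUUAUCaggaaccuuga
Its 19 bases occurred in the annotated transcripts of 1 gene, Upf1, and in no member. Upf1 had 5217 and 5243 normalised read counts in the siCtl libraries and 2403, 2496 and 2449 in the siUpf1 libraries, so that 46.8% of the siCtl level remained (DESeq2 log2 fold change -1.10 ± 0.0507 SE, adjusted p = 7.09e-101).

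The libraries held 20402205 to 27717594 assigned reads, of which the 10 members together took 0.114% to 0.121%. As a check of the cell line, 13 neuroblastoma markers had a mean over 100 normalised counts, while the neurofilament genes Nefl and Nefm had at most 4.2 in any library. The summed level of the marker list was 41844 to 42116 in siCtl and 48601 to 51566 in siUpf1. Of 10 markers of astrocytes, oligodendrocytes, microglia and fibroblasts 6 had a mean under 10, Mog, Cx3cr1 and Col3a1 were at 0, and the list summed to 472 to 504 in siCtl and 539 to 582 in siUpf1, most of it Mbp. The part of these shifts in the results was not tested. In bulk RNA, fewer cells of a type and less RNA per cell cannot be told apart.

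All 10 members passed the filter on low counts. On Upf1 knockdown 3 of them rose (Casc3, Rnps1 and Pym1), 3 fell (Rbm8a, Acin1 and Magoh) and 4 were not called (Eif4a3, Magohb, Pnn and Sap18). The largest increase was that of Casc3, to 140% of the siCtl level, and the largest decrease that of Rbm8a, to 72.1%, so that these core genes moved in opposite directions. The share of members called was 60%. Of all 15191 genes tested, 44.9% were called by DESeq2 at an adjusted p under 0.05 (22% higher and 22.9% lower). Of the 8456 genes at least as abundant as the lowest member 62.1% were called, a share close to that of the members. edgeR called 9 members, with 54.6% of all genes called, and DESeq2 with the replicate number as a block called 3, with 31.1%. The median log2 fold change was -0.06 over the members and 0.00 over all genes tested. The siCtl and siUpf1 libraries did not overlap at 9 of the 10 members, Pnn being the exception, against 69.4% of all genes tested. The share without overlap among genes as abundant as the members was not determined.

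**Figure D1:**
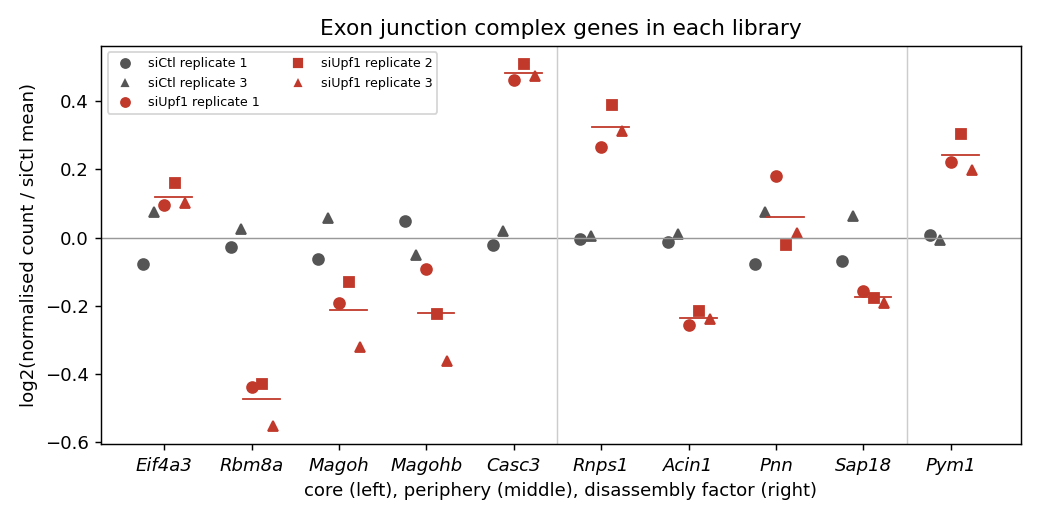
Each point is 1 library, plotted as the log2 ratio of its normalised read count to the siCtl mean of that gene, with the siUpf1 mean as a line. Casc3, Rnps1 and Pym1 lie above both siCtl points in all 3 siUpf1 libraries, and Rbm8a and Acin1 lie below them.

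Casc3 (chromosome 11, 98804905 to 98833814, plus strand of GRCm38) encodes the core subunit also known as Barentsz or MLN51. It had 2720.2 and 2798 normalised counts in siCtl and 3798, 3926 and 3833 in siUpf1. The siUpf1 libraries were close to each other and all lay above both siCtl libraries. The mean thus rose from 2759 ± 55.2 (SD, n = 2) to 3852 ± 66.2 (SD, n = 3), and the log2 fold change by DESeq2 was 0.48 ± 0.0521 (SE; adjusted p = 5.29e-19), higher than that of 84.2% of the genes tested. An exon of Msl1 overlaps Casc3 on the same strand. Msl1 had a log2 fold change of 0.08 (95% interval -0.03 to 0.18).

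Rbm8a (chromosome 3, 96629933 to 96633791, plus strand) encodes the heterodimer subunit also known as Y14. Its siCtl libraries held 3933 and 4078 normalised counts and its siUpf1 libraries 2959.8, 2973 and 2731. All 3 siUpf1 values were far below both siCtl values, and replicate 3 was the lowest. The mean fell from 4005 ± 102 (SD, n = 2) to 2888 ± 136 (SD, n = 3), giving -0.47 ± 0.0566 (SE) on the log2 scale (DESeq2 adjusted p = 9.04e-16), and 13.0% of the genes tested had a lower one. Casc3 and Rbm8a kept direction and call in all alternatives run, with log2 fold changes of 0.46 to 0.51 and of -0.50 to -0.43.

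The partner of RBM8A is made from a pair of genes, Magoh (chromosome 4, 107879755 to 107887424, plus strand) and Magohb (chromosome 6, 131284388 to 131293244, minus strand), whose products take the same place in the core. Their coding sequences differed at 84 bases when aligned from the stop codon without gaps, which leaves 81.0% identity, and the longest run without a difference had 17 bases. No window of 100 nt, the length of the reads, was shared by their representative transcripts, so that reads from these transcripts could be told apart between Magoh and Magohb. The stretch with the most differences, in capitals, shows this, at coding bases 68 to 97 of Magoh and 74 to 103 of Magohb.
Magoh: agttTgaAttCcgAccTgacggTaaATtGC
Magohb: agttCgaGttTcgGccGgacggGaaGCtTA
Magoh had 944 and 1026 normalised counts in siCtl and 863, 899.9 and 789.8 in siUpf1. The siUpf1 libraries were lower, with a gap to siCtl that was smaller than the spread among them. DESeq2 put the log2 fold change at -0.22 ± 0.0896 (SE; adjusted p = 0.0379). The call was lost without siCtl replicate 1 (adjusted p = 0.071), siCtl replicate 3 (0.373), siUpf1 replicate 1 (0.0793) or siUpf1 replicate 3 (0.23), with log2 fold changes of -0.28, -0.16, -0.23 and -0.16.

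Magohb was the least abundant member by count, at 439.6 to 472 normalised counts in siCtl and 355 to 428 in siUpf1. Its log2 fold change, -0.22, was that of Magoh, with a 95% interval of -0.46 to 0.02 (DESeq2 adjusted p = 0.144). Counted as 1 gene, the pair went from 1441 ± 35.3 (SD, n = 2) to 1242 ± 84.2 normalised counts (SD, n = 3), with -0.22 ± 0.0778 (SE) on the log2 scale and a DESeq2 adjusted p of 0.0141. The share of Magohb in the pair, from counts per kb of exon, was 18.3% and 16.1% in siCtl and 18.2%, 16.3% and 16.7% in siUpf1. The groups overlapped and the difference of the means, siUpf1 minus siCtl, was -0.125 percentage points (exact permutation test over libraries, two-sided, p = 0.9, where 0.1 is the smallest p that 2 against 3 libraries allow). The size of the share depends on the length taken for each gene. Per kb of the representative transcript it was 31.1% and 27.9% in siCtl and 30.9%, 28.1% and 28.8% in siUpf1. From plain counts the means were 31.6% in siCtl and 31.5% in siUpf1. The groups overlapped by these measures as well.

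Eif4a3 (chromosome 11, 119288363 to 119300089, minus strand) encodes the helicase at the centre of the EJC. It had 3738 and 4156 normalised counts in siCtl and 4217, 4407 and 4233 in siUpf1. All siUpf1 values were above both siCtl values, yet siCtl replicate 3 was closer to them than to the other siCtl library. The log2 fold change of 0.12 had a 95% interval of 0.01 to 0.23 and did not pass the threshold after adjustment (DESeq2 adjusted p = 0.075). Without siCtl replicate 3 it was 0.19 (adjusted p = 0.0255), without siCtl replicate 1 it was 0.04 (0.715), and edgeR's quasi-likelihood test gave an adjusted p of 0.0443.

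**Figure D2:**
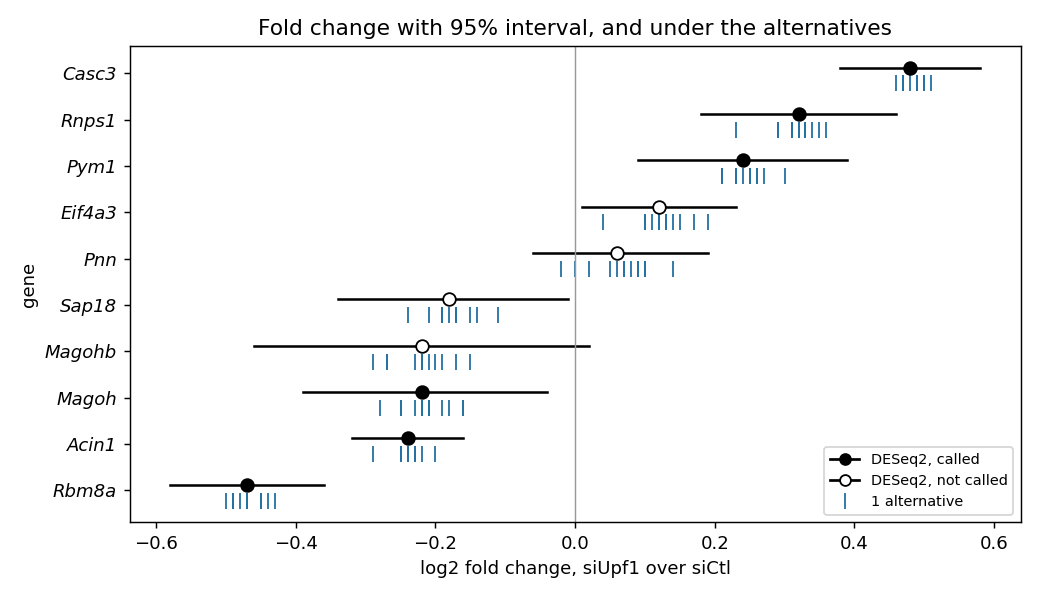
Log2 fold change of siUpf1 over siCtl from DESeq2 with its 95% interval (filled where called), above the values under each alternative (blue ticks). Casc3 at 0.48 and Rbm8a at -0.47 mark the ends, and the ticks of Pnn run from -0.02 to 0.14, on both sides of 0.

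Among the genes of the periphery, RNPS1 is the subunit common to ASAP and PSAP. Rnps1 (chromosome 17, 24414565 to 24425901, plus strand) had 1209 and 1215 normalised counts in siCtl and 1458, 1586 and 1506 in siUpf1. The siCtl libraries were almost equal, and each siUpf1 library was above them. The mean went from 1212 ± 4.61 (SD, n = 2) to 1517 ± 65.0 (SD, n = 3), or 0.32 ± 0.0724 (SE) on the log2 scale (DESeq2 adjusted p = 3.86e-05).

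Rnps1 shares part of its sequence with a copy that is itself counted. The processed pseudogene Gm9825 (chromosome 6, 7982541 to 7983383, minus strand) differs from the Rnps1 transcript at 5 of 843 aligned bases, and 19.5% of the 100-nt windows of that transcript occur in it unchanged. A stretch with 2 of these differences, in capitals, shows how little separates them (from coding base 553 of Rnps1).
Rnps1: gggaaaatTaaaatgattgacatgcctgtT
Gm9825: gggaaaatCaaaatgattgacatgcctgtC
Gm9825 had 719 and 662 normalised counts in siCtl and 752, 710.4 and 696 in siUpf1. These groups overlapped, with a log2 fold change of 0.06 (95% interval -0.13 to 0.25, DESeq2 adjusted p = 0.655). It took 37.3% and 35.3% of the counts of the pair in siCtl and 34.0%, 30.9% and 31.6% in siUpf1 (exact permutation test over libraries, two-sided, p = 0.2). With both rows summed, Rnps1 was still called higher, but by less, at 0.23 ± 0.0608 (SE) on the log2 scale (DESeq2 adjusted p = 0.000479). Which locus the reads of Gm9825 came from was not tested.

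Acin1 (chromosome 14, 54642161 to 54686931, minus strand) encodes acinus, the scaffold of ASAP, and had the most reads of all members. It had 8965 and 9112 normalised counts in siCtl and 7562, 7785 and 7664 in siUpf1. The groups were far apart relative to the spread in either. DESeq2 gave -0.24 ± 0.0414 (SE) on the log2 scale (adjusted p = 6.7e-08), and the value lay between -0.29 and -0.20 with the call kept in all alternatives. Acin1 thus fell where Rnps1 rose, and the ratio of Rnps1 to Acin1 in counts per kb of exon was 0.277 and 0.274 in siCtl and 0.395, 0.418 and 0.403 in siUpf1. This ratio, like the others below, was chosen with the fold changes known and is given as a description.

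Pnn (chromosome 12, 59066884 to 59073998, plus strand) encodes pinin, the scaffold of PSAP. Its libraries held 4871 and 5415 normalised counts in siCtl and 5829, 5069 and 5189.8 in siUpf1. These values overlapped, with siUpf1 replicate 1 as the highest. The log2 fold change of 0.06 had a 95% interval of -0.06 to 0.19 (DESeq2 adjusted p = 0.474), so a change to about that upper bound cannot be told from none here. The ratio of Pnn to Acin1 in counts per kb of exon was 0.993 and 1.09 in siCtl and 1.41, 1.19 and 1.24 in siUpf1.

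Sap18 (chromosome 14, 57798180 to 57806638, plus strand) encodes a ubiquitin-fold protein that was first described with the SIN3 histone deacetylase complex and is shared by ASAP and PSAP. It had 924 and 1012 normalised counts in siCtl and 847 to 869 in siUpf1. The siUpf1 libraries were all below siCtl, but the siCtl libraries lay further apart. The log2 fold change was -0.18 (95% interval -0.34 to -0.01, DESeq2 adjusted p = 0.0808), while edgeR gave an adjusted p of 0.022. The intronless copy Sap18b is identical to Sap18 over the whole coding sequence. Its row held 6 to 46 raw reads per library, at most 4.84% of those of Sap18. The counting parameters that the study states do not ask for reads with several equal matches, and the part of such reads in these counts was not tested. In the representative transcript of 5125 nt, 13.5% of the windows are shared with Sap18b, and in the 4 shorter coding transcripts, of 459 to 662 nt, 41.4% to 85.8%.

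Pym1 (chromosome 10, 128747889 to 128766564, plus strand) encodes the disassembly factor. Its libraries held 1051 and 1039.7 normalised counts in siCtl and 1219, 1292 and 1201 in siUpf1. The siCtl values were almost equal and every siUpf1 value was above them. The mean rose from 1046 ± 8.29 (SD, n = 2) to 1237 ± 47.9 (SD, n = 3), or 0.24 ± 0.0768 (SE) on the log2 scale (DESeq2 adjusted p = 0.00499). The call was lost without siCtl replicate 1 (log2 fold change 0.25, adjusted p = 0.0676) or siCtl replicate 3 (0.23, adjusted p = 0.0948). Of the 1059 windows of 100 nt in its representative transcript, 33 (3.12%) are shared with Gm9353, which had at most 24.1 normalised counts.

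Levels of different genes can be compared only per length, and are given as normalised counts per kb of annotated exon. In siCtl, Eif4a3 was the highest at 1860 ± 139 (SD, n = 2), followed by Magoh at 1280 ± 75.3 and Rbm8a at 1246 ± 31.8, whose libraries overlapped. Pnn (893 ± 66.8) and Acin1 (859 ± 9.88) also overlapped, and below them came Pym1 (788 ± 6.25), Casc3 (641 ± 12.8), Magohb (265 ± 13.2), Rnps1 (236 ± 0.899) and Sap18 (178 ± 11.5), each apart from its neighbour. In siUpf1, Pym1 moved from rank 6 to rank 3 (933 ± 36.1, SD, n = 3), with libraries that overlapped those of Pnn, and Rnps1 (296 ± 12.7) and Magohb (227 ± 21.2) exchanged ranks 8 and 9 without overlap. Casc3 at 895 ± 15.4 (SD, n = 3) and Rbm8a at 898 ± 42.3 were side by side. The ratio of Casc3 to Rbm8a was 0.517 and 0.513 in siCtl and 0.959, 0.987 and 1.05 in siUpf1, a 1.94-fold difference between the means. That of Eif4a3 to Rbm8a was 1.44 and 1.54 in siCtl and 2.16, 2.25 and 2.35 in siUpf1. The ratio of Rbm8a to Magoh plus Magohb moved less, from 0.815 and 0.798 to 0.672, 0.663 and 0.690.

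**Figure D3:**
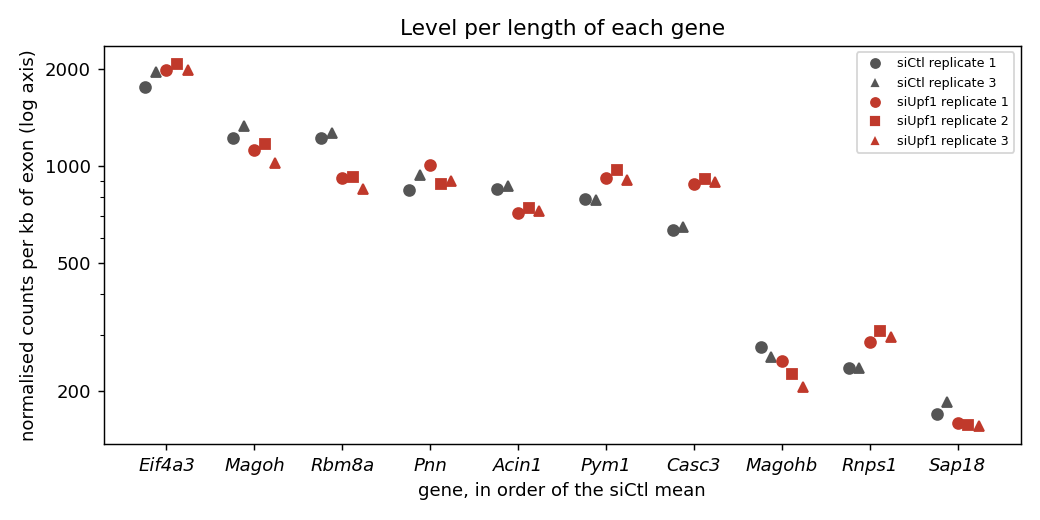
Normalised counts per kb of exon on a log axis, 1 point per library, with genes in order of the siCtl mean. With all annotated exons as the length, Casc3 and Rbm8a lie apart in siCtl (641 and 1246) and together in siUpf1 (895 and 898).

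The order depends on the length taken for a gene. With the representative transcript in place of all annotated exons, Acin1 moved from rank 5 to rank 2 in siCtl (1909 ± 22, SD, n = 2), Magoh from 2 to 5 (1424 ± 83.8), and Rnps1 (667 ± 2.54) came above Magohb (594 ± 29.6). Eif4a3 (2616 ± 196) and Sap18 (189 ± 12.3) remained the highest and the lowest. By this length Pym1 was at rank 6 in both groups, and Rnps1 and Magohb kept ranks 8 and 9. The rank changes in siUpf1 given above were thus not seen. Casc3 (1030 ± 17.7, SD, n = 3) then lay below Rbm8a (1109 ± 52.2) in each siUpf1 library. The siUpf1 mean of Pnn (1539 ± 117) lay below that of Acin1 (1620 ± 23.6), so ratios between genes depend on the length too. The value of Sap18 rests on a representative 3′ untranslated region (3′ UTR) of 4560 nt and would be different for its shorter transcripts.

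The members were also described by transcript features that played no part in choosing them. In GENCODE M21, an annotation of the same genome build, transcripts labelled as NMD isoforms were listed for 2 of the 10 members, Magohb (3 transcripts) and Pnn (1), neither of which was called. No representative transcript of a member had an intron 50 nt or more downstream of the stop codon, the arrangement that leaves an EJC behind the stop, and Casc3 had 1 intron closer than that. Annotated retained-intron transcripts were listed for Acin1 (9), Rnps1 (6), Rbm8a (2), Magohb (2), Pnn (2) and Sap18 (1). The representative 3′ UTRs of the members that rose had 1588 nt (Casc3), 716 nt (Rnps1) and 473 nt (Pym1), and those of the members that fell 2057 nt (Rbm8a), 567 nt (Acin1) and 148 nt (Magoh). These are counts per gene, so changes among isoforms of a member were not measured.

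Because an siRNA can act on 3′ UTRs through bases 2 to 8 of either strand, the matching 7-mers were searched on the mRNA strand of the representative 3′ UTRs. GATAATT, which pairs with the antisense strand, occurred in 7.98% of 10955 3′ UTRs of at least 50 nt from genes with a mean count of at least 50, and in no member. AACCTTG, which pairs with the sense strand, occurred in 10.2% of them, and once each in Rnps1 (GRCm38, plus strand, chr17:24425728-24425750) and Sap18 (plus strand, chr14:57806025-57806047), shown with the 7-mer in capitals.
Rnps1: tgcaggttAACCTTGgcagtgtg
Sap18: gggaaacgAACCTTGtatagcga
Of 3′ UTRs within 20% of the length of those of Rnps1 and Sap18, 5.72% and 26.2% held AACCTTG. Of these 2 members, Rnps1 rose (log2 fold change 0.32) and Sap18 was not called (-0.18, 95% interval -0.34 to -0.01). The part of these matches in the results was not tested.

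Genes that work with the EJC were read from the same fit, as lists written with earlier results of these data known. Of 12 NMD factors, 4 were called higher and 4 lower, with a median log2 fold change of 0.03. The list and its lower calls include Upf1, the target of the siRNA itself. The share called was 66.7%, against 44.9% of all genes tested and 62.1% of those at least as abundant as the lowest member of the complex. Smg6, the endonuclease of NMD, had the largest increase (0.69, SE 0.0604), followed by the kinase gene Smg1 (0.52, SE 0.0565), while Upf1 (-1.10) and Nbas (-0.48) were the lowest. Of 4 genes for EJC loading and import, 50% were called, beside the same 44.9% and 62.1%. Cwc27 (-0.48, SE 0.0773) and Aqr (-0.35, SE 0.0537) were called lower. Cwc22, which brings eIF4A3 to the spliceosome (-0.14, SE 0.0787, DESeq2 adjusted p = 0.137), and Ipo13, the importin for MAGOH-RBM8A (0.08, SE 0.0607, DESeq2 adjusted p = 0.308), were not called.

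Of 17 genes for mRNA export and splicing factors found with the EJC, 9 were called lower and 2 higher, and the median was -0.19. Across all genes tested 22.9% were called lower and 22% higher. Among those at least as abundant as the lowest member of the complex the shares were 32.4% and 29.6%. Chtop (log2 fold change -0.70, SE 0.0559), a subunit of the TREX export complex, fell from 3470.2 ± 42.3 normalised counts (SD, n = 2) to 2137 ± 52.8 (SD, n = 3), and Thoc1 (-0.55, SE 0.0757), of the THO core of TREX, fell from 1773 ± 81.6 to 1210.1 ± 77.4. Alyref2 (0.58, SE 0.181) and Zc3h11a (0.38, SE 0.157) were the 2 higher genes, both at low counts, and the number of higher genes was 0 or 1 whichever library was left out. The number of lower genes was then 6 to 9.

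Eif4a1 and Eif4a2, the paralogs of Eif4a3 that serve in translation initiation, were both called lower. So were 22.9% of all genes tested and 32.4% of those at least as abundant as the lowest member of the complex. Eif4a2 fell from 4889 ± 75.1 normalised counts (SD, n = 2) to 3029.5 ± 39.3 (SD, n = 3; log2 fold change -0.69, SE 0.0496) and Eif4a1 from 8549 ± 199 to 6686 ± 82.2 (-0.35, SE 0.0427), with Eif4a3 at 0.12. Of 13 genes for SIN3-HDAC partners of SAP18, 12 were tested, 2 were called higher and 5 lower, and the median was -0.11. The share called was 58.3%, against 44.9% of all genes tested and 62.1% of those at least as abundant as the lowest member of the complex. Sap130 (0.54, SE 0.0679) and Ing1 (0.30, SE 0.0757) rose, and Sin3b (-0.39, SE 0.0908) and Rbbp7 (-0.31, SE 0.0416) fell.

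**Figure D4:**
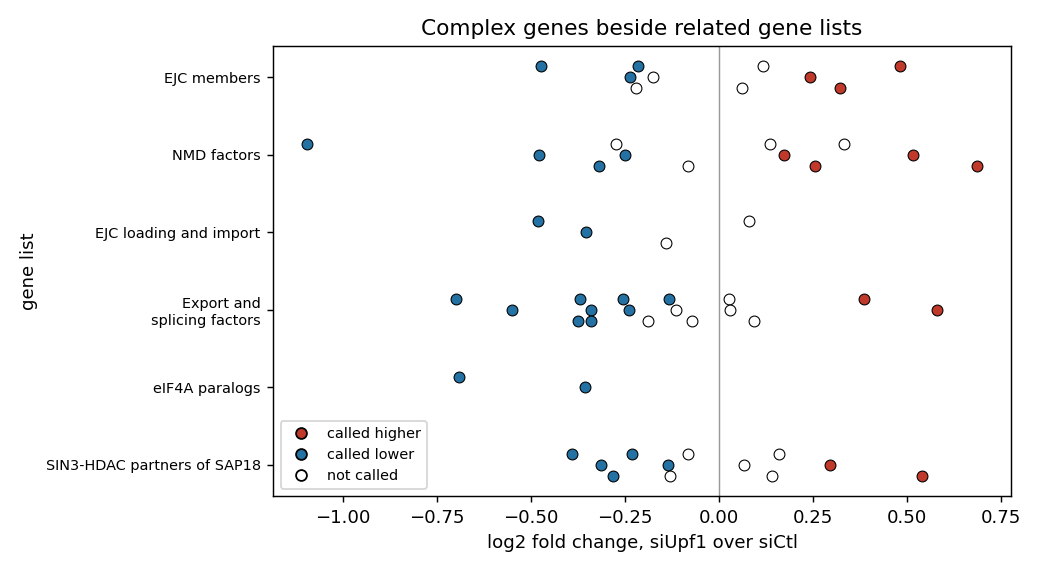
Each point is 1 gene at its log2 fold change of siUpf1 over siCtl, by list, coloured where DESeq2 called it. The members of the complex run from -0.47 to 0.48. Of the 17 export and splicing factors 9 are called lower, beside 22.9% of all genes tested and 32.4% of those at least as abundant as the lowest member.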

How the data were processed

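Polyadenylated RNA was sequenced from strand-specific libraries as single-end reads of 100 nt. The authors trimmed reads with fastp, mapped them to GRCm38.p6 with STAR 2.7.0f (the version in the submitters' processing notes) in two-pass mode, and deposited raw read counts per gene made by featureCounts (Subread 1.6.4) over exons with GENCODE M22 or M25, without normalisation or pooling. Depth was 20402205 to 27717594 counts per library. PCR duplicates cannot be seen in such counts.

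Counts of all 55573 genes were fitted with DESeq2 1.42.0 in R 4.3.3 (Wald test, two-sided, group as the only term, all 5 libraries, median-of-ratios size factors, independent filtering, Benjamini-Hochberg adjustment over all genes tested), the test that the study used. Calls required an adjusted p under 0.05. Intervals are 95% and equal the estimate ± a normal quantile times the SE. edgeR 4.0.16 (quasi-likelihood) was the first alternative. Others were TMM, total counts, total counts without Gm42418 and mitochondrial genes, a minimum of 10 counts in 2 libraries, no filter, the replicate number as a block, each library left out, length and GC trends removed, and near-identical copies summed. Alternatives that read Gm9825 alone, or took lengths from the representative transcript, were added after seeing the data. Scripts were tested on simulated data.

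Annotation and transcript sequences came from GENCODE M21, where 99.7% of gene identifiers were found. Copies were genes whose transcripts matched at least 50% of a member's coding sequence at 90% identity. Ddx39a was matched through its older symbol Ddx39. The members and lists were chosen with earlier results of these data known. Named genes were all members, Upf1, copies, and in each list the 2 highest and the 2 lowest called genes, or all genes of lists of up to 4. Msl1, Gm9353, Gm44958 and the markers named are outside this rule and were chosen after their values were seen. One gene of the marker list is not reported here.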

Additional observations from a re-analysis of the deposited data

How the results depend on the processing

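Libraries of the same replicate number were not treated as pairs in the main fit, and the labels do not say whether they were paired. The correlation of deviations from the group means, taken over genes, was -0.0861 between the libraries numbered 1 and -0.0748 between those numbered 3, while siCtl lacked a library numbered 2. With 2 siCtl libraries their deviations mirror each other, so these correlations are not independent and cannot exclude a pairing. With the number as a block, 1 member was called higher, and log2 fold changes of members that lost their call were -0.25 (Magoh), 0.29 (Rnps1) and 0.21 (Pym1), with adjusted p-values of 0.197, 0.0616 and 0.234. Fewer residual degrees of freedom remain with the block. Being alone in its block, siUpf1 replicate 2 then adds nothing to the group comparison, which rests on the libraries numbered 1 and 3. Under the block 0 export and splicing factors and 1 SIN3-HDAC partner were called higher, and 3 of the latter lower. Of all 12606 genes tested in that fit, 1957 were called higher and 1962 lower.

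edgeR called 5 members lower, adding Magohb (-0.21) and Sap18 (-0.17), and also Eif4a3 as higher (0.12), and it called 4 SIN3-HDAC partners higher. Of the 15368 genes that edgeR tested, 4220 were called higher and 4172 lower. With the length and GC trend removed 5 members were lower as well, with -0.27 for Magohb, -0.21 for Sap18 and 0.17 for Eif4a3. Of the 14157 genes tested in that fit, 3255 were called higher and 3917 lower. Magoh lost its call with total counts (-0.19), with total counts without Gm42418 and mitochondrial genes (-0.18) and with no filter (-0.22), and under the second of these Eif4a3 was called higher (0.15). With no filter 1 export and splicing factor was higher. The pseudogene row Gm9825 alone gave 0.06 in place of the 0.32 of Rnps1. The cause of these changes was not tested.

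With each siUpf1 library left out in turn, 3 members were higher and 2 to 3 lower. Of the 13702 to 14417 genes tested in these fits, 2802 to 2944 were called higher and 2768 to 3115 lower. With any single library left out, siCtl or siUpf1, log2 fold changes were 0.04 to 0.19 (Eif4a3), -0.28 to -0.16 (Magoh), -0.29 to -0.15 (Magohb), 0.29 to 0.35 (Rnps1), -0.24 to -0.11 (Sap18), 0.21 to 0.26 (Pym1) and -0.02 to 0.14 (Pnn). The difference in the Magohb share was -1.22 to 0.967 percentage points. In the fits without a siUpf1 library, 1 export and splicing factor was called higher and 9 lower, and 2 SIN3-HDAC partners higher and 4 to 5 lower. Where a siCtl library was left out, the lone one was assumed to vary like the siUpf1 libraries. No called member changed sign under any alternative. Pnn, which was not called, was at -0.02 without siCtl replicate 1, and the difference in the Magohb share was above 0 without siCtl replicate 1, siUpf1 replicate 2 or siUpf1 replicate 3. Precision is limited by 2 siCtl and 3 siUpf1 libraries.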
